A study of Mus musculus with 12 samples.

Results

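Open chromatin was compared in Hras.Myc cells treated with PD and in untreated Hras.Myc cells, to ask which loci close, open or keep their accessibility when the kinase MEK is inhibited, in a study of how transformed fibroblasts respond to reprogramming to pluripotency. Hras.Myc cells are mouse embryonic fibroblasts (MEFs) made to grow without limit by oncogenic Hras and Myc transgenes. PD (PD0325901) is an inhibitor of MEK and was given for 2 days. Hras.Myc+PD and Hras.Myc cells had 2 ATAC-seq libraries each, out of 12 libraries in 7 groups, and both groups carry the same transgenes. The study derives its transformed lines from OG2 MEFs, which hold an Oct4-GFP reporter, whereas the labels of these libraries name an ICR background, and which of them holds here is not known. ATAC-seq uses the Tn5 transposase to insert sequencing adapters into open chromatin.

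The data were 7 deposited lists of peaks, 1 for each group, so that the libraries of a group cannot be told apart and no p-value can be given. Peaks of all 7 lists that shared at least 1 bp were merged, and each merged region is called a locus. A locus was open in a group where that list had a peak. Of 147985 loci in all, 82011 were open in either Hras.Myc list. These were divided into closed loci (open in Hras.Myc, no peak in Hras.Myc+PD), opened loci (the reverse) and kept loci (open in both). The comparison rests on 1 transformed line, 1 time of 2 days and 1 pooled list per group. Whether the line was 1 clone is not stated in the sources used. In a pooled list, fewer cells with an open locus and less opening per cell cannot be told apart. Read depth is unknown, so the absence of a peak does not show that reads were absent.

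As background, RAS activates RAF, which activates MEK, and MEK phosphorylates the kinases ERK1 and ERK2. Active ERK enters the nucleus and induces immediate early genes, among them FOS and JUN family members, whose products pair as AP-1 and bind the sequence TGACTCA. ERK also induces its own brakes, the DUSP phosphatases and the Sprouty proteins. TEAD factors bind GGAATG together with the co-activators YAP and TAZ, which are held back by the Hippo kinases and respond to the actin skeleton.

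The list of Hras.Myc+PD held 56774 peaks and that of Hras.Myc 67738, covering 22.6 Mb in Hras.Myc+PD and 27.0 Mb in Hras.Myc. The check of the cell type used promoters, that is loci no more than 1000 bp from where transcription of a protein-coding gene starts (its TSS). Promoters of 13 of 15 fibroblast and mesenchyme genes were open with PD and 13 untreated, Col1a2 and Lum being the exceptions in both lists. Epithelial promoters were also open (7 of 10 with PD and 7 untreated), as were neural ones (4 of 5 in each list), and no promoter of 5 muscle genes was open in either. Of 5 blood genes, Csf1r alone was open with PD, and Csf1r and Cd68 untreated, while Ptprc, Itgam and Spi1 had no promoter peak in either list. Of 5 endothelial genes, Kdr was open with PD, and Kdr and Pecam1 untreated.

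Example sequences are shown first, and holding a site was part of the rule that picked them. The 3 closed loci below were picked among those with AP-1 sites near genes that lost most loci. The 3 opened loci were picked among those with a TEAD site near genes that gained most loci. Each is the central 200 bp of the locus on the plus strand of mm10 (GRCm38), with the sites in capitals: TGACTCA or its reverse complement for AP-1, and GGAATG or its reverse complement for TEAD. All 6 lay in introns of the named gene. The closed loci were at chr6:86074940-86075139 (Add2), chr3:138854124-138854323 (Tspan5) and chr10:12556905-12557104 (Utrn). The opened loci were at chr11:62087159-62087358 (Specc1), chr8:61756945-61757144 (Palld) and chr11:118438816-118439015 (C1qtnf1).
Add2, closed: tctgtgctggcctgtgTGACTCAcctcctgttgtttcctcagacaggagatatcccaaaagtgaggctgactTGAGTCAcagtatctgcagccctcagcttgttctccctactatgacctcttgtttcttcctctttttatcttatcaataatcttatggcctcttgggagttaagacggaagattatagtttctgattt
Tspan5, closed: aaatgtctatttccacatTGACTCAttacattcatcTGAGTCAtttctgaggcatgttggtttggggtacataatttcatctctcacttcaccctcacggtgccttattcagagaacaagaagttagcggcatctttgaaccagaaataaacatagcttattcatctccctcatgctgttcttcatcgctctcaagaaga
Utrn, closed: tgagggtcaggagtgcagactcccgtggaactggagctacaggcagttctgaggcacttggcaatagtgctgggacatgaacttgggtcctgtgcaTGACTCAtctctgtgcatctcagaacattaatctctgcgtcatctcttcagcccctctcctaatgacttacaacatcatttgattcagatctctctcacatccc
Specc1, opened: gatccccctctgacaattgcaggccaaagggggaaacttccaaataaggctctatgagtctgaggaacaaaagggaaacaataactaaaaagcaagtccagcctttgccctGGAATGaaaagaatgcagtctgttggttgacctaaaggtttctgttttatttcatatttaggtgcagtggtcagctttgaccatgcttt
Palld, opened: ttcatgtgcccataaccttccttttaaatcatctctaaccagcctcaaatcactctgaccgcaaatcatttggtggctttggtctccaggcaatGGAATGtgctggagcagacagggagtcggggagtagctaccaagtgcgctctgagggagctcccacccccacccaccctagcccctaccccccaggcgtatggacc
C1qtnf1, opened: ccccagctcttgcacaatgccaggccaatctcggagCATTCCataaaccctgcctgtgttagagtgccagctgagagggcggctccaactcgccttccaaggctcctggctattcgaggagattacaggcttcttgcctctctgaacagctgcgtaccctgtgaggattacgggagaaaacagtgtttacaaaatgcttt

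PD closed more loci than it opened. Of the 67178 loci open in Hras.Myc, 25769 (38.4%, 95% interval 38.0 to 38.7) had no peak with PD. Of the 56242 loci open with PD, 14833 (26.4%, 26.0 to 26.7) had no peak in untreated cells, and 41409 loci were kept. Closed loci were thus 63.5% of the loci that changed. With both lists brought to 56774 peaks by score, 20540 loci were closed and 20348 opened, and the share of closed loci was 50.2%. Lists of equal length must give nearly equal counts of closed and opened loci, so this does not test the excess. Here and below, only the untreated list was shortened, by its weakest peaks, which can only lower the closed count and raise the opened count. The excess of closed loci cannot be told apart from the shorter PD list. Intervals on shares of loci are at 95% by the exact Clopper-Pearson method, cover counting error alone, and take loci to be independent.

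Peak scores have no stated scale. They were read only as a percentile within their list, from 0 for the lowest to 100 for the highest score. Changed loci were not confined to weak peaks. Opened loci had a median percentile of 46.3 in the PD list (quartiles 21.03 and 73.2), and closed loci a median of 43.9 in the untreated list (20.3 and 71.5). Among the top decile of untreated peaks, 2322 loci were closed, and 2292 of them were distal, that is more than 1000 bp from a TSS.

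At kept loci, the percentile with PD minus the percentile untreated had a median of 0.05 points (quartiles -12.3 and 10.8, SD 23.3). A shift of more than 25 points was taken as a change of rank. The rank was lower with PD at 5535 kept loci (13.4%) and higher at 4084 (9.86%). The rule is a fixed size with no test, and the values next to it were -25.01 and -24.998 for falls and 25.01 and 24.996 for rises.

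Promoters were mostly kept and distal loci were not. At promoters, 631 of 14042 loci open with PD (4.49%, 4.16 to 4.85) were opened, and 1035 of 14446 open untreated (7.16%, 6.75 to 7.60) were closed. At distal loci, 14202 of 42200 (33.7%) were opened and 24734 of 52732 (46.9%) were closed. The median shift at kept promoter loci was 2.06 points, and that at kept distal loci was -1.76. With lists of equal length 16.1% of promoter loci were opened and 4.68% closed. The direction of the excess at promoters thus turned, but shortening the untreated list alone raises the opened share by construction. Distal loci changed more than promoter loci in both directions either way.

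Opening was more frequent far from genes, and it differed with distance more than closing did. Between 1000 and 5000 bp from a TSS, 23.3% of loci were opened and 41.1% closed. Beyond 100000 bp, 52.5% were opened and 53.5% closed. For each opened locus there were 2.54 closed loci at 5000 to 10000 bp and 1.04 beyond 100000 bp. Within 10000 bp, the sides differed little, as 23.2% of distal loci upstream of the TSS were opened and 39.98% closed, against 22.7% and 43.7% downstream. Intronic loci were closed in 49.6%, intergenic loci in 45.2% and exonic loci in 41.5%, and opened in 34.3%, 35.0% and 20.4%.

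**Figure D1:**
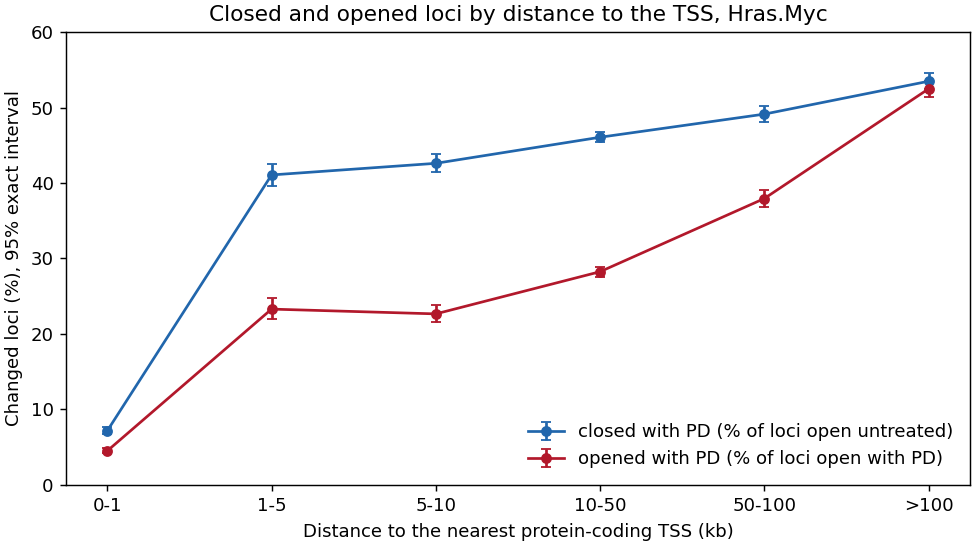
Share of Hras.Myc loci opened with PD (% of loci open with PD, red) and closed with PD (% of loci open untreated, blue) by distance to the nearest protein-coding TSS in kb. Bars are exact 95% intervals for counting error. Opening was 4.49% within 1 kb and 52.5% beyond 100 kb, and closing 7.16% and 53.5%.

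The strength of a peak mattered at promoters more than at distal loci. In the lowest decile of score, 23.6% of promoter loci were opened and 27.5% closed, and in the highest decile 0.785% were opened and 3.34% closed. For distal loci these shares were 39.3% opened and 57.0% closed in the lowest decile, and 33.0% opened and 39.0% closed in the highest. Above the lowest decile, the opened share of distal loci stayed between 31.1% and 34.5%.

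**Figure D2:**
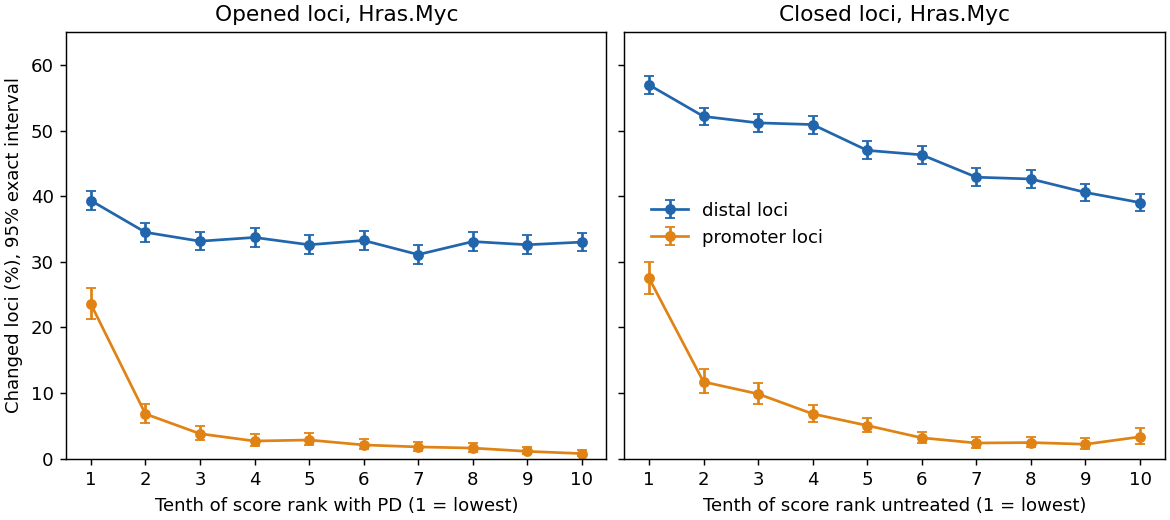
Share of loci opened with PD (left) and closed with PD (right) in Hras.Myc by decile of peak score within the list in which the locus was open, for promoter loci (orange) and distal loci (blue), with exact 95% intervals. In the highest decile 33.0% of distal loci were opened and 39.0% closed, against 0.785% and 3.34% of promoter loci.

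Low GC content went with change in both directions, and more so with opening. Distal loci with a GC content under 40% in their central 200 bp were opened in 69.7% and closed in 57.4%, whereas those of 60 to 70% GC were opened in 12.9% and closed in 22.9%. Opened distal loci had a median GC content of 45%, closed ones 48.5% and kept ones 50.5%. For AP-1, TEAD and some other motifs, ratios of shares at matched GC content are therefore also given below.

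AP-1 sites marked the loci that closed. The site TGACTCA, looked for in the central 200 bp of each locus on both strands, like all motifs here, lay in 23.7% of all 147985 loci. It was found in 6.45% (6.06 to 6.86) of opened loci, 48.1% (47.5 to 48.8) of closed loci and 18.6% of kept loci. A match is a description of the sequence and does not show that a factor was bound.

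The number of AP-1 sites went with the fate of distal loci. Of distal loci open untreated, 37.8% of those with no site, 62.5% of those with 1, 62.8% of those with 2 and 53.4% (45.0 to 61.6, of 148 loci) of those with 3 were closed, as were 76.7% (57.7 to 90.1) of the 30 loci with 4 or more. Opening ran the other way, at 39.1% of loci open with PD for no site, 12.5% for 1 site, 2.4% for 2 sites and 0 of 69 loci for 3 sites. Kept loci followed the same direction: the median shift was 0.68 points with no site, -11.0 with 1, -20.3 with 2 and -11.5 with 3, and the rank was lower in 13.1%, 31.2%, 43.3% and 29.0% of them. A first site thus came with the larger step for closing, and loci with 2 sites fell further in rank and were opened less often than loci with 1, at about the same closed share. The shift also went with the starting rank, with a median of 7.27 points in the lowest untreated decile of kept distal loci and -13.6 in the highest. Distal loci open untreated with 2 or more sites numbered 217 in the weakest quintile and 1349 in the strongest. Those without a site numbered 7951 and 4933. Shifts were not split by starting rank, here or below, so the site and the starting rank were not separated.

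**Figure D3:**
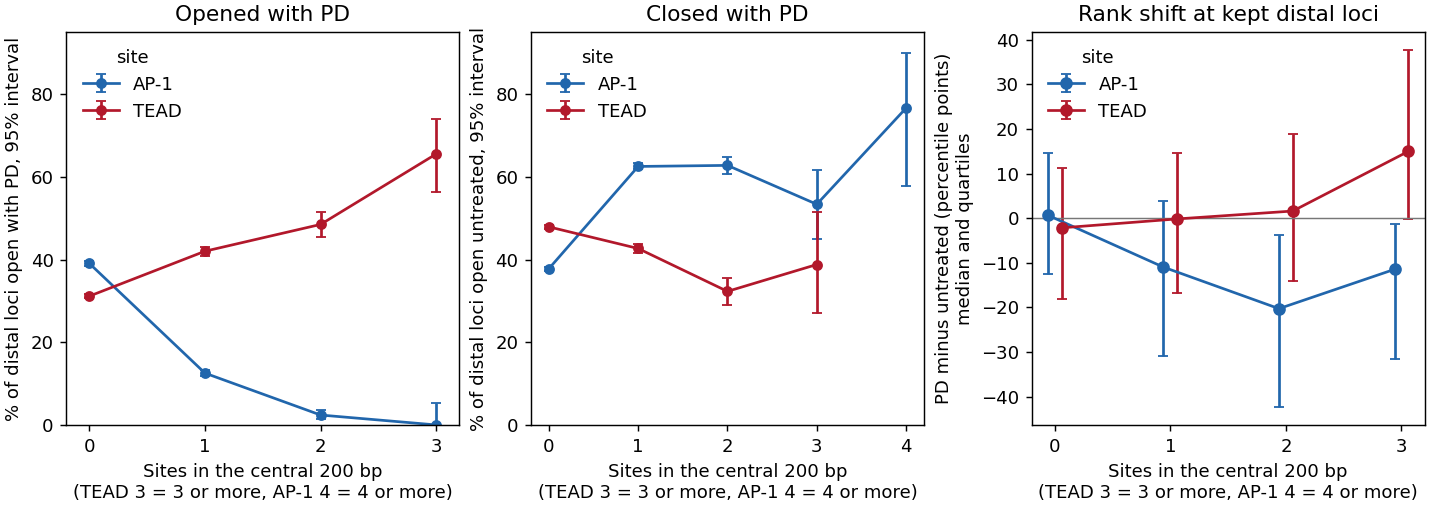
Distal loci of Hras.Myc by the number of AP-1 (blue) and TEAD (red) sites in their central 200 bp. The left panel gives the share of loci opened with PD, the middle panel the share closed, both with exact 95% intervals, and the right panel the median shift of percentile at kept loci (PD minus untreated) with quartiles. Opening was 39.1% with no AP-1 site and 2.4% with 2, but 31.2% with no TEAD site and 48.5% with 2.

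The closed share was higher with a site than without in every class of peak strength and distance, and in every class of GC content up to 70%. In the weakest quintile of untreated distal peaks 47.4% of loci without a site, 74.3% of those with 1 and 86.2% of those with more were closed, and in the strongest quintile 26.0%, 50.1% and 52.9%. Promoter loci with a site were closed in 37.0% and those without in 5.70%, and beyond 100000 bp from a TSS the shares were 64.9% and 43.9%. In distal loci of 40 to 50% GC, 65.7% with a site and 42.3% without were closed, and in those of 60 to 70% GC 36.2% and 21.03%. Over 70% GC only 20 loci held a site, and 1 of them (5.0%, 0.127 to 24.9) was closed, against 11.1% without a site.

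Neither the place nor most neighbours of the site changed the closed share. With 1 site within 20 bp of the centre of a distal locus 62.8% were closed, at 20 to 50 bp 62.5%, and at 50 to 100 bp 62.3%. Split by the bases before and after the site, the share ran between 59.1% and 64.6% for 8 of 10 pairs of bases, and was lower for a C before and an A after (53.1%, 48.4 to 57.7) and for a T before and an A after (49.2%, 36.1 to 62.3, of 61 loci).

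Sites that differ from TGACTCA by 1 base were compared in distal loci with no full site, of which 37.8% were closed. Positions count from 1 at the 5′ end of TGACTCA, whose base comes first in each substitution. Loci with T1C were closed in 61.0% (56.4 to 65.4), with A7G in 58.8%, with C6A in 58.3%, with C4A in 54.5%, with G2T in 53.0% and with T5A in 51.4%. The other variants lay between 32.8% (T5G) and 46.3% (A7T). Several near matches were thus closed almost as often as the full site, and T5G, with 332 loci and an interval of 27.8 to 38.2, did not differ from loci with no full site beyond counting error.

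TEAD sites went with opening. GGAATG lay in 18.9% of all loci, in 26.3% (25.6 to 27.0) of opened loci, 14.2% (13.8 to 14.6) of closed loci and 14.3% of kept loci. Of distal loci open with PD, 31.2% with no TEAD site, 42.0% with 1, 48.5% with 2 and 65.5% (56.3 to 74.0, of 119 loci) with 3 or more were opened. The median shift of kept distal loci was -2.16, -0.16, 1.61 and 15.0 points in the same order. Weighted to the GC content of the opened loci, the ratio of opened to kept shares was 1.45 for TEAD, against 1.84 unweighted, and 0.232 for AP-1, against 0.346 unweighted.

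Where the sites occurred together, AP-1 went with the outcome more than TEAD did. Distal loci with a TEAD site only were opened in 50.1% and closed in 33.7%. Those with an AP-1 site only were opened in 10.6% and closed in 64.0%. With both, 13.9% were opened and 54.9% closed, and with neither 36.2% were opened and 38.6% closed.

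Other motifs were more frequent in opened loci than in kept ones. Each motif was searched on its own, so sites of different motifs may overlap. HOX/CDX sites (TTTATGG, 3.38% of all loci) lay in 7.0% of opened, 2.14% of closed and 2.03% of kept loci. Homeodomain sites (TAATTA, 3.83% of all) lay in 5.89%, 3.15% and 2.27%, and NFI sites (TTGGCA, 13.7% of all) in 17.5%, 10.5% and 9.79% in that order. MEF2 sites were rare (0.880% of all loci) and lay in 1.5% of opened, 0.419% of closed and 0.592% of kept loci. The ratio of opened to kept shares was 3.45 for HOX/CDX, 2.60 for homeodomain, 1.78 for NFI and 2.53 for MEF2 sites. Weighted to the GC content of the opened loci, these ratios fell to 1.84, 1.25, 1.51 and 1.55. Distal loci open with PD were opened in 57.4% where they held a HOX/CDX site and in 49.2% where they held a MEF2 site, against 32.6% and 33.5% without. RUNX sites (TGTGGTT, 7.23% of all) made no such difference, with 34.4% opened at 1 site and 33.6% at none.

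Motifs of kept loci were those of promoters and of the insulator protein CTCF. SP sites (GGGCGG, 10.3% of all loci) lay in 26.5% of kept loci, 4.48% of opened and 5.92% of closed loci. CTCF sites (2.98% of all) lay in 7.44% of kept, 1.65% of opened and 2.35% of closed loci, and only 7.57% of distal loci with one were opened and 16.9% closed, against 35.8% and 49.1% without. CRE sites (TGACGTCA, 0.584% of all), which differ from AP-1 sites by 1 inserted base, were found in 0.270% of opened, 0.361% of closed and 1.30% of kept loci. ETS sites (CCGGAAGT, 0.768% of all) lay in 0.135% of opened, 0.279% of closed and 2.25% of kept loci. REL sites (GGAATTTCC, 0.460% of all) were instead most frequent in opened loci, at 0.654%, against 0.260% of closed and 0.336% of kept loci. Their ratio of opened to kept shares was 1.95, and 1.40 when weighted to the GC content of the opened loci. E2A E-boxes (CAGCTG, 14.0% of all) were nearly even at 14.7% of opened, 15.7% of closed and 15.0% of kept loci. The ratio of closed to kept shares was 0.223 for SP, 0.316 for CTCF, 0.278 for CRE and 0.124 for ETS sites. Weighted to the GC content of the closed loci, these ratios were 0.634, 0.247, 0.464 and 0.291.

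Neighbouring distal loci shared their fate more often than not sharing it would give, at every class of gap between them. Where a distal locus was closed, its next open neighbour within 1000 bp was closed in 55.8% (52.6 to 59.1), against 36.3% (33.4 to 39.2) where it was kept. At gaps over 50000 bp these shares were 53.9% and 49.9%. For opening they were 44.7% and 26.0% within 1000 bp, and 51.5% and 38.8% over 50000 bp.

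The longest rows of loci with the same fate, chosen after their values were seen, often lay within single genes. The longest closed row without an opened locus inside was 14 loci in Rptor, whose product is the scaffold of the mTORC1 kinase complex, over 121.6 kb (chr11:119696340-119817914). Of these loci 11 held an AP-1 site, 1 a TEAD site, and 11 were also closed in Hras.E1A. At Agpat3, which encodes an acyltransferase of phospholipid synthesis, 10 loci in a row closed within 47.3 kb, and at Cacna1i, a T-type calcium channel gene, 11 closed within 110.2 kb. A row of 11 closed loci spanned 1338 kb of the prolactin gene cluster, and 8 of these loci held AP-1. Opened rows held few AP-1 sites. The longest was 17 opened loci over 602.3 kb near Dph6, a gene of diphthamide synthesis, with no locus holding AP-1, 2 holding TEAD and 1 closed locus inside. At Lrmda 16 loci opened over 435.1 kb, 5 with TEAD and none with AP-1.

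A locus was given to the gene with the closest protein-coding TSS, up to 10000 bp from the edge of the locus. Promoters were set by the distance of the edge too, while the distances printed are those of the centre. Of 15341 genes with an open locus, 4694 had a closed and 2276 an opened locus, and for 9145 every locus was kept. Over all these loci, 11.5% of those open with PD were opened and 22.6% of those open untreated were closed, which are the shares against which genes and lists are read. Closed loci outnumbered opened ones by 3 or more at 146 genes, and opened loci outnumbered closed ones by 3 or more at 24.

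Ranked by closed minus opened loci, with predicted genes left out and ties settled first by counts up to 50000 bp away and next alphabetically, the top 12 genes were led by Add2, which encodes beta-adducin, a protein that caps actin filaments and joins them to spectrin. At Add2, 6 loci closed, 1 was kept and none opened. Its kept promoter locus, 28 bp from the TSS, was at percentile 43.5 with PD and 30.8 untreated. A second promoter locus at -180 bp closed from percentile 32.7, and distal loci at -9278 and -3018 bp, both within introns, closed from 65.6. The 3 other closed loci stood between 10.9 and 16.8. Of the 6 closed loci, 5 held AP-1, and all 6 were closed by PD in Hras.E1A too. Distances carry a minus sign upstream of the nearest TSS.

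Tmcc3 and Tspan5 lost 6 loci each, with 1 and 2 opened. At Tspan5, a tetraspanin gene, the closed loci stood between percentile 2.36 and 74.6, and 5 of the 6 held AP-1. At Tmcc3, which encodes a membrane protein of the endoplasmic reticulum, the closed loci stood between 4.78 and 72.6, and 1 of the 6 held AP-1. Tns1 (tensin 1, a focal adhesion protein that binds actin) lost 5 loci, all at percentile 18.3 or less. Utrn, which encodes utrophin, a relative of dystrophin that ties actin to the membrane, lost 5 loci, 1 of them at 89.9. At Eps8, whose product caps and bundles actin, 4 loci closed and the promoter was kept at 64.2 with PD and 56.1 untreated, and the strongest closed locus was at 82.5. Nlrc5, a regulator of MHC class I genes, lost 5 and gained 1, all of them weak at 23.3 or less, while its promoter stood at 67.7 with PD and 55.7 untreated. Gas7, Agpat3, Nhsl1, Sema6d and Pitpnm2 completed the 12 genes, with 4 or 5 closed loci each.

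Of the 58 loci closed at these 12 genes, 29 (50.0%) held an AP-1 site and 38 were also closed in Hras.E1A, and their median percentile untreated was 23.5. Among all closed loci, 48.1% held an AP-1 site and 57.0% were also closed in Hras.E1A. Many were weak, and with lists of equal length the net number of closed loci was 4 at Add2 and Pitpnm2, but 0 at Tns1 and Tspan5 and 1 at Tmcc3 and Nlrc5.

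Limch1, which encodes an activator of non-muscle myosin, led the 12 genes ranked highest by opened minus closed loci under the same rule, with 5 opened, 1 kept and none closed. Its kept promoter locus stood at percentile 36.3 with PD and 24.2 untreated. A second promoter locus at 732 bp opened at 80.9, an intronic locus at -5268 bp at 73.9, and the 3 others stood between 5.64 and 33.6 in the PD list. Within 50000 bp, 14 loci opened, 7 were kept and 2 closed. None of the 5 opened loci held an AP-1 or TEAD site, and 1 opened in Hras.E1A too.

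Palld (palladin, an actin-crosslinking protein of stress fibres) gained 4 loci and lost 1, and its opened locus at 8430 bp stood at 66.9. One of its kept promoter loci stood at 15.2 with PD and 66.4 untreated. Gsn, which encodes the actin-severing protein gelsolin, gained 3 weak loci (3.13 to 25.3), and its kept intronic locus at 6812 bp, with a TEAD site, stood at 78.7 with PD and 53.4 untreated. Cdon, a co-receptor for hedgehog, gained 3 loci between 15.4 and 23.5. Hoxc4 gained 3 with the strongest, at -92 bp, at 33.8. The promoter of Edn2, an endothelin gene, opened at 32.2 with no kept locus within 10000 bp. At Abi3bp, an extracellular matrix gene, 3 loci opened, the strongest at 54.2, while the kept promoter locus stood at 14.5 with PD and 77.5 untreated. Gains of loci and the rank of the promoter thus did not always go together. Specc1, C1qtnf1, Cacnb2, Bloc1s5 and Adgrb2 completed the 12 genes with 3 or 4 opened loci each. Of the 40 loci opened at the 12 genes, 3 (7.5%) held AP-1, 8 held TEAD and 9 also opened in Hras.E1A. Their median percentile with PD was 19.0. Among all opened loci, 6.45% held AP-1, 26.3% held TEAD and 27.4% also opened in Hras.E1A.

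Among kept promoter loci, the largest falls of rank with PD included Csf1r, which encodes the receptor for the growth factor CSF1 on macrophages. Its promoter locus stood at percentile 7.29 with PD and 98.7 untreated, held an AP-1 site, and closed in Hras.E1A. Shroom3, an actin regulator of cell shape, stood at 0.269 with PD and 82.4 untreated. Runx1t1, a transcriptional co-repressor gene, stood at 6.52 with PD and 84.3 untreated. Phldb1, whose product anchors microtubules at the cell cortex, stood at 13.2 with PD and 86.7 untreated. Of the 8 loci with the largest falls, those of Csf1r, Phldb1, Tcf4 and Cdk14 held an AP-1 site. The others in this group were Tcf4 (19.5 with PD, 90.9 untreated), Cdk14 (19.6 and 90.5 in that order), Meox1 (20.6 and 91.4) and Yjefn3 (13.52 and 86.8).

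None of the 8 largest rises held an AP-1 site, but 12985 of all 13411 kept promoter loci held none either. Plscr2, a scramblase gene, stood at 97 with PD and 3.82 untreated, with 2 TEAD sites. Tctex1d1 stood at 99.3 with PD and 15.1 untreated, Adam30 at 96.2 and 9.69, Elmo2, whose product helps activate Rac, at 98.5 and 17.1, and Maml3, a Notch co-activator gene, at 94.3 and 15.9. Tmcc2, Hhatl and S100a8 were the remaining ones, with 93.2, 87.7 and 92.3 with PD and 8.79, 9.66 and 17.0 untreated.

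**Figure D4:**
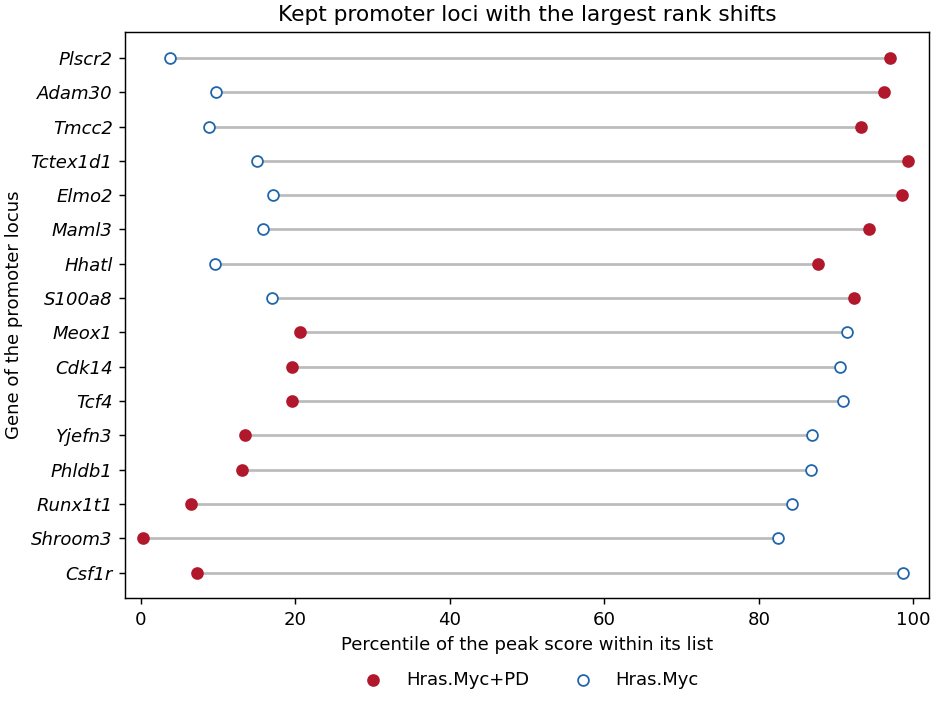
Percentile of the peak score within its list at the 16 kept promoter loci with the largest shifts, in Hras.Myc+PD (filled red) and Hras.Myc (open blue). Each line joins the values of 1 locus, 1 pooled list per group. The 8 upper loci stood at 87.7 or more with PD, and the 8 lower loci at 20.6 or less.

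Promoters that closed or opened outright from a high rank were picked after their values were seen. Closed ones included P2rx7, an ATP-gated channel gene (percentile 99.04 untreated), Dtnb, which encodes the dystrophin partner beta-dystrobrevin (98.8, 2 AP-1 sites), Cavin4, a caveolar protein gene (98.6), Chn1, a Rac GTPase-activating protein gene (98.0), the collagenase gene Mmp1b (97.3), the complement receptor gene C3ar1 (93.7), and Ibsp, bone sialoprotein (93.3). All of these but P2rx7 and Dtnb were also closed in Hras.E1A. Opened ones included Dmd, the dystrophin gene (99.7 with PD, chromosome X), the homeobox gene Hoxd4 (98.9), Ogn, which encodes the matrix proteoglycan osteoglycin (98.1), and Mylk3, a cardiac myosin light chain kinase gene (97.3). In Hras.E1A the Dmd locus was closed with PD, those of Hoxd4 and Ogn were kept, and that of Mylk3 opened. In all, 294 genes had a promoter locus open only with PD and 610 only untreated.

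The direct readouts of the pathway were 3 lists of 52 immediate early genes, feedback inhibitors and growth genes that ERK induces, and their promoters changed about as often as all promoters. An open promoter locus was found at 50 of these genes with PD and 51 untreated. Of their 67 promoter loci open untreated, 4 (5.97%, 1.65 to 14.6) were closed, against 7.16% of all promoter loci, and the median shift of the kept ones was 2.49 points, against 2.06. Their distal loci were split by AP-1. Of 19 distal loci with a site, 9 (47.4%, 24.4 to 71.1) were closed and none opened, and the 10 kept ones had a median shift of -18.02 points. Of 50 without a site, 11 (22.0%, 11.5 to 36.0) were closed, with a median shift of -1.71. Over all genes, 58.9% of loci with a site and 35.0% of those without were closed at 5000 to 10000 bp, and 65.3% and 31.3% at 1000 to 5000 bp. These splits were made after the loci had been seen.

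Single loci of ERK genes, also chosen after their values were seen, showed falls away from the promoter. Ereg, which encodes the EGF receptor ligand epiregulin, kept its promoter at percentile 54.6 with PD and 36.2 untreated, and lost the locus at 8636 bp, which stood at 97.3 untreated. At Dusp1, a phosphatase that inactivates MAP kinases, the promoter stood at 45.3 with PD and 44.3 untreated, and the locus at -6354 bp at 30.4 with PD and 95.2 untreated. Both loci were picked among those with more than 1 AP-1 site, and each held 2. They are shown here, again the central 200 bp on the plus strand of mm10 with TGACTCA or its reverse complement in capitals. The third is the promoter locus of Phldb1 described above, picked among kept promoter loci with a site, of which it held 1. They lie at chr5:91083159-91083358 (Ereg, intron), chr17:26514773-26514972 (Dusp1, intron of a long transcript, upstream of the nearest start) and chr9:44727554-44727753 (Phldb1).
Ereg, closed: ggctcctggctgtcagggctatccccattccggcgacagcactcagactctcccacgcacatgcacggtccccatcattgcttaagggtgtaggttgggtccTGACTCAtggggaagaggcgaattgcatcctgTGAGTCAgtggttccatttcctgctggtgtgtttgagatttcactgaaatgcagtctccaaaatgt
Dusp1, kept: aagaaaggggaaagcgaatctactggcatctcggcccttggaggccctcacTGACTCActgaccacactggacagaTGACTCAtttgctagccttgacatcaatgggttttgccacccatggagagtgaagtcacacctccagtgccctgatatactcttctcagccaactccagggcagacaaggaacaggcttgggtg
Phldb1, kept: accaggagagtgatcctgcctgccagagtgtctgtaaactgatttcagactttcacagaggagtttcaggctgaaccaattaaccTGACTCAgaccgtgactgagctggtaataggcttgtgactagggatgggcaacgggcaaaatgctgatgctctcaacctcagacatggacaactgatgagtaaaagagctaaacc

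Other ERK genes gave the same picture at some loci. Of distal loci open untreated, 5 of 15 (33.3%) at feedback inhibitors were closed, against 42.0% over all genes within 10000 bp. At Dusp7 the loci at -7306 and 9574 bp stood at 21.6 and 56.6 with PD, against 95.1 and 93.1 untreated. At Dusp4 the locus at 7944 bp stood at 0.368 with PD and 30.9 untreated, but the one at 9006 bp at 47.8 with PD and 9.43 untreated. Hmga1, a chromatin protein gene, had a locus with 2 AP-1 sites at -9118 bp, at 47.9 with PD and 95.1 untreated. Lrig1, which restrains receptor tyrosine kinases, lost loci at 6776 and -5962 bp, both with AP-1, and gained one at -9966 bp at 90.7. The matrix protein genes Ccn1 and Ccn2 each lost 1 locus with AP-1, at 8688 bp (33.9 untreated) and -6018 bp (39.2 untreated).

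Kept promoter loci of ERK genes moved both ways, 20 of 63 having a shift below 0, 2 being lower and 2 higher by more than 25 points. The following were chosen after their values were seen. The promoters of the ETS factor genes Etv4 and Etv5 stood at 75.4 and 94.3 with PD, against 27.9 and 73.5 untreated. Dusp6 and Spry2 stood at 78.8 and 73.6 with PD, against 63.6 and 59.2 untreated. The Fos promoter was at 27.2 with PD and 31.1 untreated. Arc had a promoter locus at 42.6 with PD and 83.5 untreated.

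Lists of genes were read against the shares over all genes, 11.5% opened and 22.6% closed. They hold members chosen with earlier results of these data known, so their counts are descriptions. The genes of the spectrin and actin membrane skeleton changed in both directions, with 14 of 70 loci open with PD opened and 27 of 83 open untreated (32.5%, 22.6 to 43.7) closed. Add2 is one of them. Ank1 (ankyrin 1) lost 4 loci, 1 at -9806 bp from percentile 96.1, Epb41l2 lost 4, and Ank3 gained 4 and lost 2. The list of TEAD factors, Hippo kinases and their targets also changed in both directions, with 12 of 57 loci (21.1%) opened and 21 of 66 (31.8%) closed. There, Tead1 lost 3 loci, the Hippo kinase gene Stk3 lost 2, 1 of them from percentile 93.9, and Wwtr1, which encodes TAZ, gained 1 at -8026 bp.

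Mesenchymal regulators and contractile genes gained loci above the background. Of the loci of mesenchymal regulators open with PD, 16 of 62 (25.8%, 15.5 to 38.5) were opened, and of those open untreated 15 of 61 (24.6%) were closed. Zeb2, a repressor of epithelial genes, gained 3 loci, 1 at 7148 bp at percentile 70.8, whereas its relative Zeb1 lost 1 at -8104 bp from 91.2. Prrx1, a homeobox gene of limb mesenchyme, gained 2, the stronger at 82.3. Of contractile and SRF target genes, 15 of 65 loci (23.1%, 13.53 to 35.2) were opened and 11 of 61 (18.03%) closed. Mylk, the smooth muscle myosin light chain kinase gene, gained 3 loci and lost the promoter locus at -42 bp, which stood at 69.7 and held AP-1. Myocd, which encodes the SRF co-activator myocardin, gained a locus at -8314 bp at 91.4 and lost one at -5652 bp from 90.7.

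Collagen and matrix genes had 10 of 53 loci (18.9%) opened and 15 of 58 (25.9%) closed, and their kept loci had a median shift of 6.77 points. Bgn, the proteoglycan biglycan, gained a locus at -6816 bp with 2 TEAD sites at percentile 98.4, and Tnc, the matrix glycoprotein tenascin C, one at -3434 bp with 1 TEAD site at 93.4. The Thbs2 promoter opened at 66.8. Col5a2 and Col6a3 lost loci at 8050 and 8978 bp from 89.8 and 96.2, both with 2 AP-1 sites, while a kept intronic locus of Col6a3 stood at 64.7 with PD and 3.78 untreated. Col1a1 had a kept locus 878 bp from its TSS at 85.3 with PD and 47.2 untreated.

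Pluripotency genes, the targets of reprogramming, gained none of 24 loci open with PD (0%, 0 to 14.2) and lost 11 of 35 (31.4%, 16.9 to 49.3). Pou5f1, which encodes Oct4, lost 3 loci of low rank (5.41, 13.4 and 27.3 untreated) and had no kept locus within 10000 bp. Prdm14 and Dppa3 lost loci from 89.0 and 79.2. The locus of Nanog at -4780 bp was kept, at 71.1 with PD and 83.2 untreated. If the cells hold the Oct4-GFP reporter, which carries regulatory sequence of Pou5f1, its reads cannot be told apart from those of Pou5f1 in these lists. With lists of equal length, 20.8% of the loci of pluripotency genes were opened and 20.8% closed, so the one-sided loss was not seen there.

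With the full lists, genes of growth had the lowest shares of closed loci. The MYC network had 2 of 41 loci (4.88%) opened and 4 of 43 (9.30%) closed, and cell cycle and replication genes 4 of 62 (6.45%) opened and 6 of 64 (9.38%) closed. Of their distal loci alone, 4 of 15 (26.7%) and 6 of 24 (25.0%) were closed, against 42.0% over all genes. That distal share was lower still for Hox clusters (5 of 33, 15.2%) and ERK immediate early genes (7 of 32, 21.9%). All 5 loci of Cdkn1a, the cell cycle inhibitor p21, were kept, and none shifted by more than the -5.95 points of the locus at -10048 bp. Hox clusters had 15 of 77 loci (19.5%) opened and 12 of 74 (16.2%) closed. AP-1 and ATF factor genes had 3 of 36 (8.33%) opened and 6 of 39 (15.4%) closed. With lists of equal length, the opened share of ERK immediate early genes differed from that of all genes by 9.83 points, against -5.98 points with the full lists (3 of 54, 5.56%), so no direction is read from it. The sign turned likewise for ERK feedback inhibitors (9.13 points), ERK-induced growth genes (11.5), AP-1 and ATF factors (2.42) and cell cycle genes (0.449), and the MYC network came to -0.967. For Hox clusters this difference was 25.3 points with lists of equal length, against 7.94 points with the full lists. The lists of Wnt, TGF-beta, histone acetylation, growth arrest, invasion, receptor tyrosine kinase, focal adhesion and epithelial genes lay between 12.1% and 16.3% opened and between 17.5% and 26.7% closed.

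**Figure D5:**
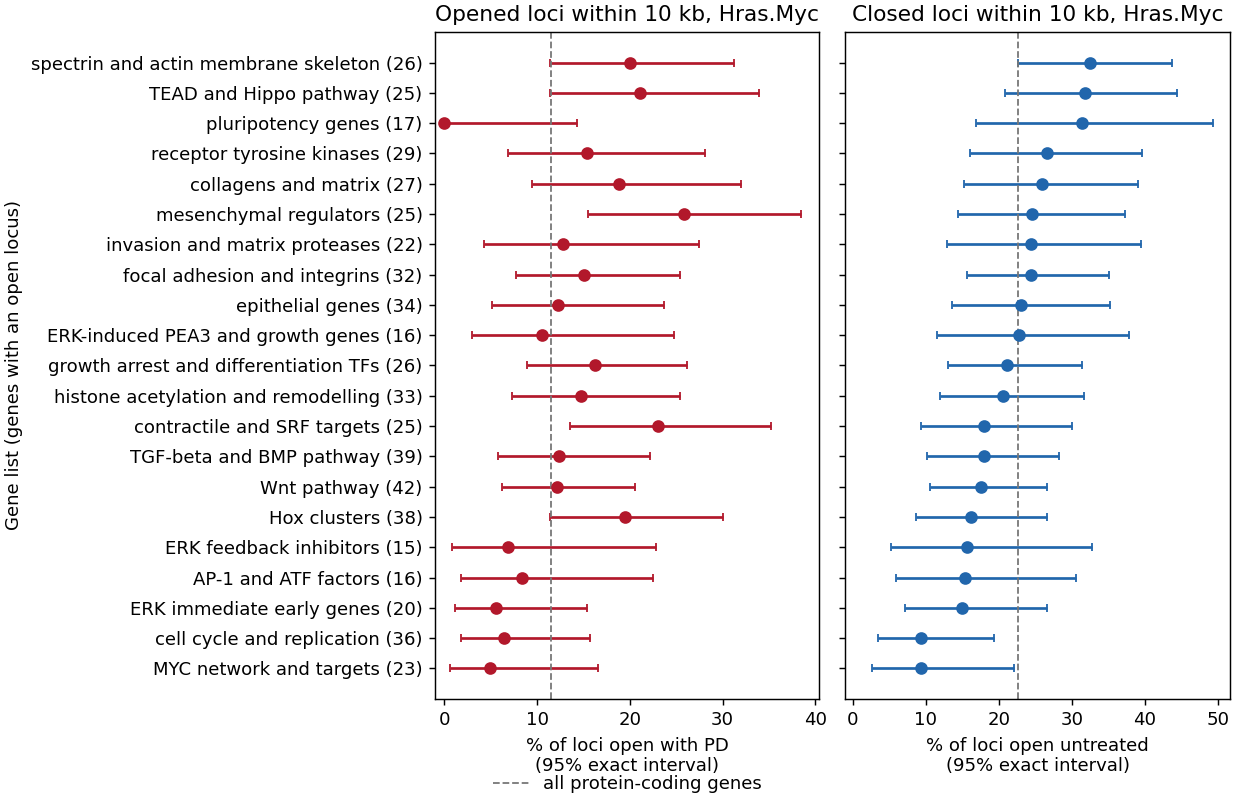
Share of loci within 10 kb of the TSS opened with PD (left, % of loci open with PD) and closed with PD (right, % of loci open untreated) for 21 gene lists in Hras.Myc, with exact 95% intervals; dashed lines are all protein-coding genes (11.5% and 22.6%). The number of genes with an open locus is in parentheses. Mesenchymal regulators lay highest for opening (25.8%), and the MYC network and cell cycle genes lowest for closing (9.30% and 9.38%).

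A promoter locus was kept at Tcf7l2, Isl1, Epcam and Cdh1, a selection of genes from the study. The promoter locus of Cdh1, the E-cadherin gene, stood at percentile 33.5 with PD and 9.47 untreated, while intronic loci at 5112 and 22926 bp closed from 73.1 and 41.7. A further intronic locus of Cdh1 at 16402 bp stood at 86.1 with PD and 49.2 untreated. The promoters of Epcam (58.9 with PD, 66.8 untreated) and Isl1 (83.3 with PD, 87.7 untreated) moved little. At Tcf7l2, a Wnt pathway transcription factor gene, 2 loci closed, 4 were kept and none opened within 10000 bp. Within 50000 bp, 9 closed, 10 were kept and 2 opened. Its strongest promoter locus was kept, at 90.7 with PD and 98.3 untreated, and another at 1130 bp closed from 2.38. An intronic locus at 13756 bp opened at 91.5, and one at -29572 bp with 2 AP-1 sites closed from 81.1. At the mouse genes of the transgenes, the Hras promoter locus stood at 75.3 with PD and 71.7 untreated, and that of Myc at 24.6 with PD and 24.7 untreated. Loci downstream of Myc moved in opposite directions, that at 11650 bp standing at 33.2 with PD and 89.1 untreated, and that at 41128 bp at 92.4 with PD and 67.0 untreated.

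The other lists place these loci. Of the loci opened by PD in Hras.Myc, 65.3% were open in Hdac7SA.Mef2d, MEFs transformed by a mutant Hdac7 with Mef2d, 53.5% in Hras.E1A+PD and 34.8% in Hras.E1A. Of the closed loci, 59.3% were open in Hdac7SA.Mef2d, 24.0% in Hras.E1A+PD and 79.3% in Hras.E1A. Of the kept loci, 91.9% were open in Hdac7SA.Mef2d, 85.8% in Hras.E1A+PD and 96.2% in Hras.E1A. Of all 147985 loci, these lists held 118624, 59258 and 80569 in that order. Hras.E1A has its own untreated list, and there PD opened 16.9% of the loci open with PD and closed 38.9% of those open untreated. Of the loci closed in Hras.Myc, 57.0% were closed in Hras.E1A as well, 22.3% kept and 1.68% opened, and 19.0% had no peak in either Hras.E1A list. Of the loci opened in Hras.Myc, 27.4% opened in Hras.E1A, 26.1% were kept, 8.63% closed and 37.8% had no peak. All lists share positions, since weak peaks were recovered from other lists, so these shares are descriptions.

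Sites behaved alike in direction in the 2 lines. In Hras.Myc 62.5% of distal loci with an AP-1 site and 37.8% of those without were closed, and in Hras.E1A 70.7% and 34.0%. TEAD sites went with opening in both, at 43.1% with and 31.2% without in Hras.Myc, and 29.97% and 19.2% in Hras.E1A. At the 34922 loci kept in both lines, the shifts had a Pearson correlation of 0.35 and a Spearman correlation of 0.27 across loci, which are not independent replicates and share peak positions. Of 3802 loci lower in Hras.Myc, 33.8% were lower and 7.31% higher in Hras.E1A. Over all 34922 loci kept in both lines, 10.4% were lower and 11.7% higher in Hras.E1A.

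TSA, an inhibitor of histone deacetylases, was given to Hras.Myc cells in 1 library, and its list is set against the same untreated list. With PD 26.4% of loci open with treatment were opened and 38.4% of those open untreated were closed, and with TSA 20.3% and 16.4%. At distal loci these shares were 33.7% opened and 46.9% closed with PD, and 24.2% and 19.0% with TSA, and at promoters 4.49% and 7.16% with PD, and 4.90% and 7.07% with TSA. Because both share the untreated list, no overlap between them is given.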

How the data were processed

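ATAC-seq of 12 libraries in 7 groups was deposited as 1 peak list per group, with libraries of a group pooled, in mm10 coordinates. Bowtie2 2.4.5 and MACS2 2.2.7.1 are named in the submitters' processing notes. Per the study's methods, the authors redefined peaks across samples, so that weak peaks seen elsewhere could be recovered. Each peak is 400 bp wide, and the score that the authors deposited with it has no stated scale, so only its rank within a list was used. No read counts were used here, so depth is unknown. About 50000 cells went into a library.

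Peaks overlapping by 1 bp or more were merged. Genes and TSS came from GENCODE M21 on GRCm38. A gene was the nearest protein-coding TSS within 10000 bp, a promoter a locus within 1000 bp, and a change of rank a shift over 25 points. Sites of 20 motifs were searched in the central 200 bp on both strands. Shares have exact 95% intervals. With 1 list per group no test across samples was run. Named genes were the 12 with the largest net number of closed and of opened loci (predicted genes left out, ties broken by the count within 50000 bp, then by symbol), the 8 kept promoters with the largest falls and rises, members of 21 gene lists and Cdh1, Epcam, Isl1, Tcf7l2, Hras and Myc, and exceptions are stated. The members and lists were chosen with earlier results of these data known. The alternatives were other promoter widths, gene windows, motif windows and shift thresholds, a 50% overlap, the weakest 25% of peaks left out, lists of equal length, GC weighting and leaving out promoters. Scripts, tested on simulated data, used Python 3.11.15, numpy 2.4.6, pandas 2.3.3, scipy 1.17.1, pysam 0.24.0 and matplotlib 3.10.9. Wildtype MEFs were not analysed here.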

Additional observations from a re-analysis of the deposited data

Results flagged for a closer look

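The promoter loci of 2 genes moved in opposite directions with PD in the 2 lines, each with 1 pooled list per group, and the difference was not tested. The promoter locus of Shroom3 shifted by -82.16 points in Hras.Myc, with percentile 0.269 with PD and 82.4 untreated, while in Hras.E1A it had a peak only with PD, at 10.3. The promoter locus of Adam30 shifted by 86.56 points in Hras.Myc, with 96.2 with PD and 9.69 untreated, while in Hras.E1A it had a peak only in untreated cells, at 15.0. Both Hras.E1A peaks were weak.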

How the results depend on the processing

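No paired analysis was possible because each group has 1 pooled list, although the labels number the libraries 1 and 2, and for the same reason leaving out a replicate could not be computed. Over 261 alternatives for 79 results, lists of equal length changed most: promoters and most gene lists were then opened more often than closed, and the opened share of ERK immediate early genes differed from that of all genes by 9.83 points. Only the untreated list was shortened there, which raises opened shares by construction. With promoters of 500 and 2000 bp the closed promoter share was 5.66% and 10.1%, the opened promoter share 3.22% and 5.98%, and the closed distal share 46.5% at 500 bp. With lists of equal length the closed shares were 4.68% (promoter) and 45.3% (distal) and the opened shares 16.1% and 42.9%. Without the weakest 25% of peaks they were 10.2% and 52.4% closed, and 7.57% and 40.4% opened. The ratio of AP-1 in closed to kept loci was 2.44 in a 400 bp window, 1.83 at matched GC content and 1.89 without promoters, against 2.58. The ratio of AP-1 in opened to kept loci was 0.290 and 0.439 in windows of 100 and 400 bp, 0.232 at matched GC content, 0.251 without promoters and 0.388 with lists of equal length, against 0.346. For TEAD in opened loci these were 1.94, 1.64, 1.45, 1.495 and 1.64, against 1.84, and in closed loci 0.791 at matched GC content and 0.809 without promoters, against 0.994. The cause was not tested.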
